A study of Rattus norvegicus with 9 samples.

Results

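Neurotrophins and the ligands of the GDNF family keep sensory neurons alive and set how excitable they are, and the genes described here encode 1 neurotrophin and 7 receptors for these factors. They were taken by symbol from a table of 30446 genes: Bdnf, Ntrk2, Ntrk3, Ngfr, Ret, Gfra1, Gfra2 and Gfra3. All 8 passed the filter on low counts, as did 16627 genes of the whole table. The sequenced RNA came from dorsal root ganglia (DRG), which hold the cell bodies of sensory neurons and their glia, of male Sprague-Dawley rats. The 9 libraries formed 3 groups of 3 at day 30: rats with a spinal cord injury (SCI), rats with a sham operation, and naive rats. Each library was made from the ganglia T12 to L6 of both sides, below the level T11 named in the design. The labels call the libraries biological replicates but do not say whether each came from 1 animal or a pool, nor how the cord was injured.

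Brain-derived neurotrophic factor, the product of Bdnf, signals through the receptor kinase TrkB, which Ntrk2 encodes, and the product of Ntf3 signals mainly through TrkC, which Ntrk3 encodes. The receptor p75, encoded by Ngfr, binds every neurotrophin and also their uncleaved precursors. Ligands of the GDNF family first bind a co-receptor anchored to the membrane by a lipid, from Gfra1 for GDNF, Gfra2 for neurturin and Gfra3 for artemin, and the pair then activates the kinase Ret. In rodent ganglia, work mostly in mice places TrkB in neurons for light touch, TrkC in muscle afferents, Ret with Gfra2 in nonpeptidergic pain neurons and Gfra3 in peptidergic ones. A form of TrkB without the kinase and p75 are also made by glia, and counts per gene do not separate forms of a transcript.

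Between SCI and sham none of the 8 genes passed the test, and each fitted difference was under 0.2 on the log2 scale. The difference was also under 0.2 in size for 13904 of all 16627 genes tested, and none of those genes passed either. Set against naive, Ret and Gfra1 were lower and Bdnf was higher in SCI, and Ret, Gfra1 and Ntrk3 were lower and Bdnf higher in sham. Ngfr, Ntrk2, Gfra2 and Gfra3 passed no test in the main fit, though Ngfr passed against naive under a few alternatives. The calls for Ret held under every alternative processing, whereas those for the other genes depended on single libraries or settings, as given beside each.

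Library totals ran from 16724878 to 32060538 counts, and the 8 genes together took 0.194 to 0.248% of them. The lowest count of any of the 8 genes was 222 (Ntrk3 in sham 2). Levels are CPM, a gene's counts relative to the scaled size of its library, and group values are means ± SD (n = 3 each). Tests are edgeR's quasi-likelihood test on all 9 libraries, with Benjamini-Hochberg adjustment over all genes tested and calls at an adjusted p under 0.05. SCI and sham libraries scored 14.2 to 25.7 and naive libraries -43.5 to -41.6 on a first principal component that took up 59.3% of the variance. The labels name no batch, so handling and group cannot be told apart there. All 10 pan-neuronal markers passed the filter, and of 5 endothelial markers Cldn5 was at 0 in all libraries. Markers of oligodendrocytes and astrocytes, cells of the spinal cord, summed to 12.0 to 22.0 CPM.

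The promoters of the 3 genes called in both comparisons with naive are shown from RefSeq's assembly GRCr8, as the 250 bases before a transcript's start. Such windows were at hand for 4 of the 8 genes, and Bdnf, which has many first exons, had 6. The fourth Bdnf start, chr3:116637608-116637857 (plus strand), is shown because it alone of the 6 holds a cAMP response element. That element is the site of CREB, a factor through which neuronal activity is known to act on this gene. It is marked in capitals:
Bdnf: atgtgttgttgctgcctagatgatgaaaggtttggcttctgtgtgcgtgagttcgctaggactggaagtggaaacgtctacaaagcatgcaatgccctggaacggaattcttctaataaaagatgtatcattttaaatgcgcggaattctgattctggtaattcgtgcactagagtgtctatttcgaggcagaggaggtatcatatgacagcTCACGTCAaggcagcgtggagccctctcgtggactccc
The Ret window, chr4:153040557-153040806 (minus strand, written 5′ to 3′ along the gene), is shown for the gene with the firmest change:
Ret: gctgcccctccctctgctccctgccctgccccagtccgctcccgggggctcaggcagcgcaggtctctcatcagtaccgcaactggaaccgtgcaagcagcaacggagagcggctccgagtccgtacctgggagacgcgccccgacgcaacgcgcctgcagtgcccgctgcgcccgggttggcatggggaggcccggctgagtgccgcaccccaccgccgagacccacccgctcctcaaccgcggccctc
The Gfra1 window, chr1:267555812-267556061 (minus strand), is shown because Gfra1 is the co-receptor whose levels ran with those of Ret, and capitals mark a GC box, the site of Sp1:
Gfra1: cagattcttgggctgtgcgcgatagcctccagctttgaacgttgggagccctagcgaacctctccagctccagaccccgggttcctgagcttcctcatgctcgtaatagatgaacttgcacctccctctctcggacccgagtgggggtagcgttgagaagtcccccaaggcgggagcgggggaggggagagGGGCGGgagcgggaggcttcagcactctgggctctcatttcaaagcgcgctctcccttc
The windows were searched on both strands for TGACGTNA (cAMP response element) and GGGCGG (GC box). The first was found in 2.88% and the second in 30.5% of 33469 rat promoter windows of the same length. Ret's window held neither of these letter runs, though 72.8% of its bases were G or C, against 62% in Gfra1 and 46.8% in the Bdnf window. A match is a description of the letters, and no binding was measured here.

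**Figure D1:**
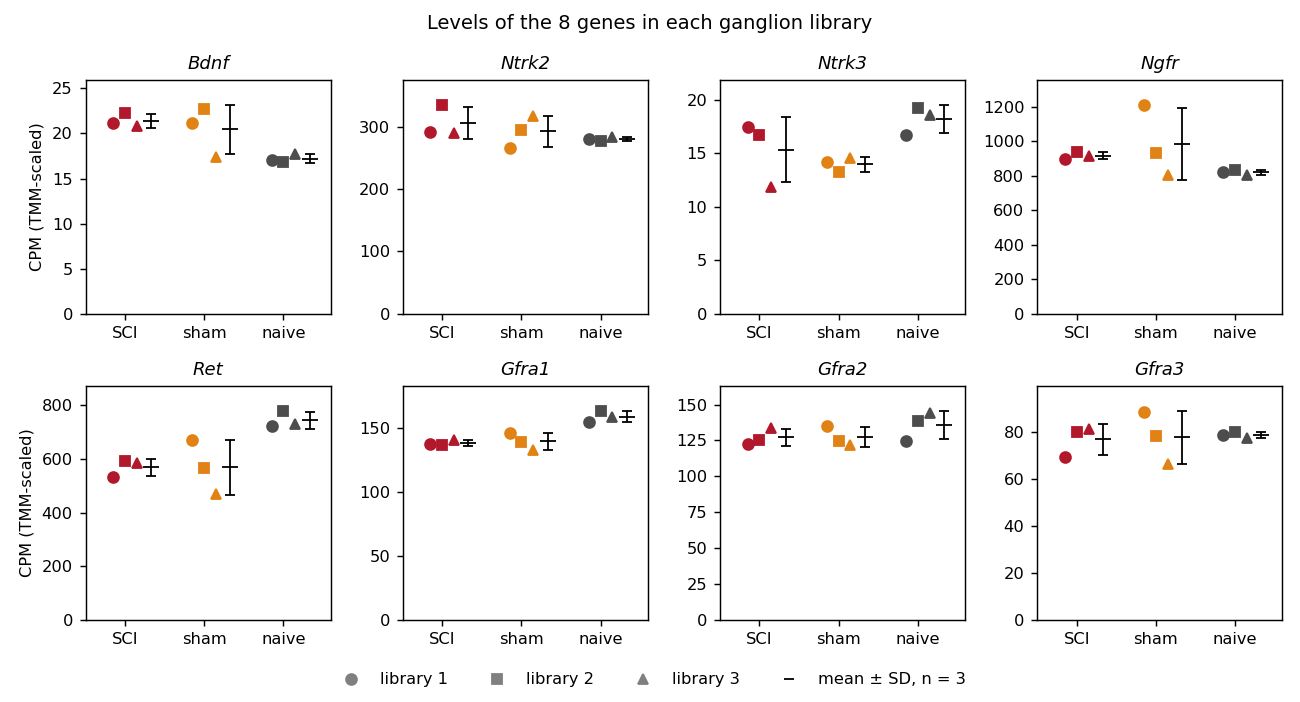
Levels in CPM of each of the 8 genes in every library (points, 3 per group) with the group mean and SD (bars), in SCI, sham and naive. Ret and Gfra1 lie lower in all SCI and sham libraries than in any naive library, whereas the groups overlap for Gfra2 and Gfra3.

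Bdnf (ENSRNOG00000047466), the ligand gene, is active in a subset of sensory neurons. It stood at 21.1, 22.3 and 20.8 CPM in SCI, at 21.2, 22.7 and 17.4 CPM in sham, and at 17.0, 16.8 and 17.8 CPM in naive. All SCI libraries lay above all naive libraries, while sham 3 fell among the naive ones. Group means were 21.4 ± 0.771 CPM in SCI, 20.4 ± 2.74 CPM in sham and 17.2 ± 0.492 CPM in naive. The change of SCI against naive was 0.32 on the log2 scale (SE 0.09), or 24.4% (95% interval 8.40 to 42.8%), with an adjusted p of 0.0123 in edgeR. Sham against naive gave 0.25 (SE 0.09, adjusted p = 0.0407 in edgeR), and SCI against sham gave 0.07 (SE 0.09, adjusted p = 0.9999). The SCI call was lost without SCI 2 (adjusted p = 0.0504). The sham call held in 1 of the 9 fits that leave out a library, the one without sham 3, with adjusted p of 0.0517 to 0.157 in the others.

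Among the Trk kinases, Ntrk2 (ENSRNOG00000018839) lay at 291.5, 335.2 and 289.9 CPM in SCI, at 266.6, 294.6 and 316.8 CPM in sham, and at 280.6, 276.7 and 283.5 CPM in naive. SCI libraries were all above the naive ones, by a margin that did not pass the test (0.12, SE 0.08, adjusted p = 0.215 in edgeR). The sham libraries reached both below and above the naive ones (0.06, SE 0.08, adjusted p = 0.538). SCI and sham overlapped, with a difference of 0.06 (SE 0.08) and a 95% interval of -0.11 to 0.23. The order of the means, SCI at 306 ± 25.7, sham at 293 ± 25.2 and naive at 280 ± 3.40 CPM, thus had no step larger than its error.

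Ntrk3 (ENSRNOG00000018674), the kinase gene of muscle afferents, rested on 222 to 612 counts per library. Its levels were 17.4, 16.7 and 11.8 CPM in SCI, 14.1, 13.2 and 14.5 CPM in sham, and 16.7, 19.3 and 18.6 CPM in naive. Sham libraries were all below naive ones, while SCI 1 overlapped naive and SCI 3 was the lowest of all 9. In edgeR, Ntrk3 fell in sham against naive by 0.38 on the log2 scale (SE 0.13, adjusted p = 0.0217). SCI against naive gave -0.24 (SE 0.12, adjusted p = 0.118), and SCI against sham gave 0.14 (SE 0.13, adjusted p = 0.9999). Without naive 2, naive 3 or sham 2 the sham call was lost (adjusted p = 0.0803, 0.0584 and 0.0763 in edgeR), and without SCI 1 the SCI comparison with naive passed (-0.36, adjusted p = 0.0495).

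Ngfr (ENSRNOG00000005392), for p75, had the sham group with the widest spread relative to its mean. Its levels were 898, 939 and 911 CPM in SCI, 1210, 931 and 804 CPM in sham, and 821, 833 and 802 CPM in naive. Every SCI library exceeded every naive one, yet the difference of 0.16 (SE 0.12) had an adjusted p of 0.267 in edgeR, in a fit whose estimate of spread includes the sham libraries. With only SCI and naive libraries in the fit it was 0.15 and passed (adjusted p = 0.00451), and likewise without sham 1 (0.15, adjusted p = 0.0475). Sham against naive gave 0.26 (SE 0.12, adjusted p = 0.0748), and without sham 3 it was 0.40 and passed (adjusted p = 0.00164). SCI against sham was -0.10 (SE 0.12), with a 95% interval of -0.35 to 0.15.

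Ret (ENSRNOG00000014751) carried the firmest differences. The kinase's transcript stood at 532, 591 and 584 CPM in SCI, at 672, 567 and 469 CPM in sham, and at 722, 779 and 732 CPM in naive. No SCI or sham library reached the lowest naive library, and the sham libraries spread over a wider range than the SCI ones. The means were 569 ± 32.2 CPM in SCI, 569 ± 102 CPM in sham and 744 ± 30.7 CPM in naive. Ret fell in SCI against naive by 0.39 on the log2 scale (SE 0.11), a change of -23.6% (95% interval -34.9 to -10.2%), with an adjusted p of 0.00935 in edgeR. In sham against naive it fell by 0.39 as well (SE 0.11, -23.5%, adjusted p = 0.00897 in edgeR). SCI and sham differed by -0.0012 (SE 0.11), with a 95% interval of -0.23 to 0.23. Differences within that interval are compatible with these data, and the interval is no limit of detection. With each library left out in turn, both falls passed in 9 of 9 fits, at -0.41 to -0.34 for SCI and -0.53 to -0.26 for sham.

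Gfra1 (ENSRNOG00000017438), the GDNF co-receptor, was 137, 136 and 140 CPM in SCI, 146, 139 and 132 CPM in sham, and 154, 163 and 158 CPM in naive. The naive libraries were again the 3 highest. Gfra1 fell by 0.20 in SCI against naive (SE 0.06, or -13.0%, adjusted p = 0.0143 in edgeR) and by 0.19 in sham against naive (SE 0.06, adjusted p = 0.0198). The difference of SCI and sham was -0.014 (SE 0.06), with a 95% interval of -0.14 to 0.12. The SCI call was lost without naive 2 or SCI 2 (adjusted p = 0.0719 and 0.0694 in edgeR), and the sham call without naive 2, naive 3 or sham 2 (adjusted p = 0.0974, 0.0535 and 0.0504).

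The remaining co-receptors showed no called difference. Gfra2 (ENSRNOG00000014010), for neurturin, was 123, 125 and 134 CPM in SCI, 135, 125 and 122 CPM in sham, and 125, 138 and 144 CPM in naive. Its log2 changes were -0.09 in SCI against naive (SE 0.07, adjusted p = 0.293 in edgeR), -0.09 in sham against naive (SE 0.07, adjusted p = 0.305) and -0.0028 in SCI against sham (SE 0.07). Gfra3 (ENSRNOG00000020309), for artemin, was 69.1, 79.7 and 81.4 CPM in SCI, 88.6, 78.3 and 66.2 CPM in sham, and 78.6, 80.0 and 77.6 CPM in naive. For this gene the naive libraries lay inside the range of both other groups. Its log2 changes were -0.04 in SCI against naive (SE 0.09), -0.02 in sham against naive (SE 0.09) and -0.02 in SCI against sham (SE 0.09). The 95% interval of SCI against naive ran from -0.24 to 0.16 for Gfra3 and from -0.25 to 0.06 for Gfra2.

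**Figure D2:**
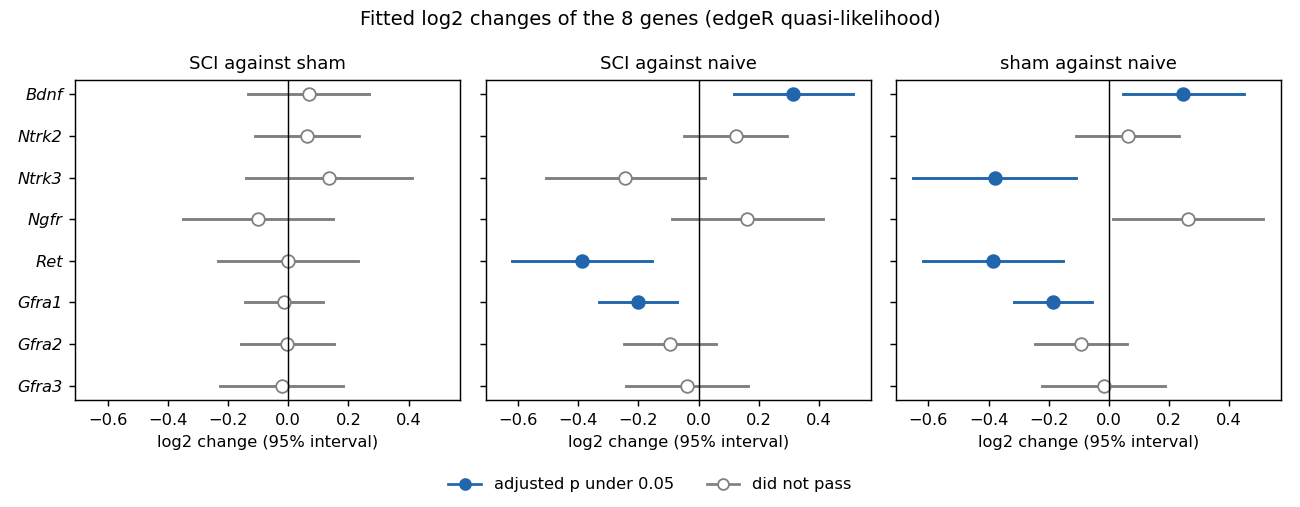
Fitted log2 changes of the 8 genes (points) with 95% intervals (lines) for SCI against sham, SCI against naive and sham against naive, filled where the adjusted p was under 0.05. In SCI against sham all 8 intervals cross 0, and in SCI against naive those of Ret, Gfra1 and Bdnf do not.

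The comparison of SCI with sham asks what the cord injury added to the operation. None of the 8 genes was called. Over all genes tested the share called was 0% (0 of 16627 in edgeR), while 526 genes and none of the 8 had an unadjusted p under 0.05. DESeq2 called 9 genes, and edgeR called 22 without sham 3, with none of the 8 among them. The fitted changes of the 8 genes ran from -0.10 to 0.14 with a median of -0.0020, beside a median of -0.00079 over all genes tested. In 0 of the 8 genes were the groups without overlap, against 6.41% of all genes.

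The comparisons with naive ask what any operation changed, and both share the naive libraries. In SCI against naive 1 of the 8 genes was higher and 2 were lower, where 23.9% of all genes were higher and 24.6% were lower (48.5% in all). In sham against naive 1 was higher and 3 were lower, where 24.7% of all genes were higher and 25.9% were lower (50.6% in all). In all, 3 and 4 of the 8 genes were called, shares no larger than the totals of the whole table. Groups did not overlap for 5 of the 8 genes in SCI against naive, against 64.1% of all genes, and for 3 of 8 in sham against naive, against 56.7% of all genes. The median change of the 8 genes was -0.067 in SCI against naive, beside 0.011 over all genes, and -0.054 in sham against naive, beside 0.00048 over all genes.

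Because these are bulk samples, fewer cells of a type and less RNA per cell cannot be told apart. Markers of several cell types moved along with the comparisons with naive. Of 9 markers of nonpeptidergic pain neurons, where Ret is known to be made, 3 were lower in SCI and 4 in sham and none was higher. Over all genes tested, 24.6% were lower in SCI and 25.9% in sham. The summed level of these markers was 884 to 1035 CPM in SCI, 848 to 1097 CPM in sham and 1174 to 1319 CPM in naive. Within that sum Scn11a averaged 263 CPM in SCI, 253 CPM in sham and 515 CPM in naive. P2rx3, the highest of the 9, was not lower, at 551, 573 and 538 CPM in the same order. Both were picked after their values were seen. Markers of peptidergic pain neurons summed to 1711 to 2045 CPM in SCI, 1803 to 2155 CPM in sham and 1765 to 1877 CPM in naive, with 2 of 6 lower in SCI and, in sham, 1 higher and 2 lower. The 8 tested markers of muscle afferents and touch neurons, the classes of Ntrk3 and Ntrk2, had 3 higher and 2 lower in SCI against naive. In sham against naive 4 were higher and 2 were lower. These markers summed to 1445 to 1513 CPM in SCI, 1506 to 1567 CPM in sham and 1388 to 1467 CPM in naive. Within that sum Spp1 averaged 910 CPM in SCI, 927 CPM in sham and 904 CPM in naive. In the same order Pvalb averaged 196, 219 and 107 CPM and Etv1 158, 161 and 224 CPM. Spp1, Pvalb and Etv1 were picked here after their values were seen.

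Glial markers moved too. Of 9 markers of myelinating Schwann cells, 7 were lower in SCI and 7 in sham against naive, with sums of 19036 to 23204 CPM in SCI, 17574 to 21946 CPM in sham and 30156 to 31889 CPM in naive. Markers of Schwann cells without myelin, which are known to make p75, were lower for 5 of 7 in SCI and 6 of 7 in sham, and summed to 930 to 974 CPM in SCI, 865 to 954 CPM in sham and 1561 to 1655 CPM in naive. Satellite glia markers, which belong to the cells that wrap each neuron, were higher for 5 of 9 in both groups. Of these markers 2 were lower in SCI and 3 in sham. They summed to 9411 to 10412 CPM in SCI, 8688 to 11636 CPM in sham and 6056 to 6218 CPM in naive. Most of that sum was Apoe, which averaged 6667 CPM in SCI, 6946 CPM in sham and 3390 CPM in naive. In the same order Ptgds averaged 1698, 1303 and 940 CPM, while Cdh19 went the other way, at 118, 112 and 218 CPM. Apoe, Ptgds and Cdh19 were picked after their values were seen. Of 8 macrophage markers 5 were higher and 1 was lower in both groups, and of 7 fibroblast markers 5 were lower in SCI and 4 in sham. Between SCI and sham no marker of any list was called, though the 8 skeletal muscle markers summed to 55.0 to 86.1 CPM in SCI, 117 to 138 CPM in sham and 56.2 to 89.5 CPM in naive. Genes with very long coding sequences, from a list written from general knowledge after the data had been seen, were lower for 41 of 42 in SCI (median -1.12) and for 41 of 42 in sham (median -1.17), and their median in SCI against sham was 0.043. The part of any of these markers in the changes of Ret, Gfra1, Ntrk3 and Bdnf was not tested.

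**Figure D3:**
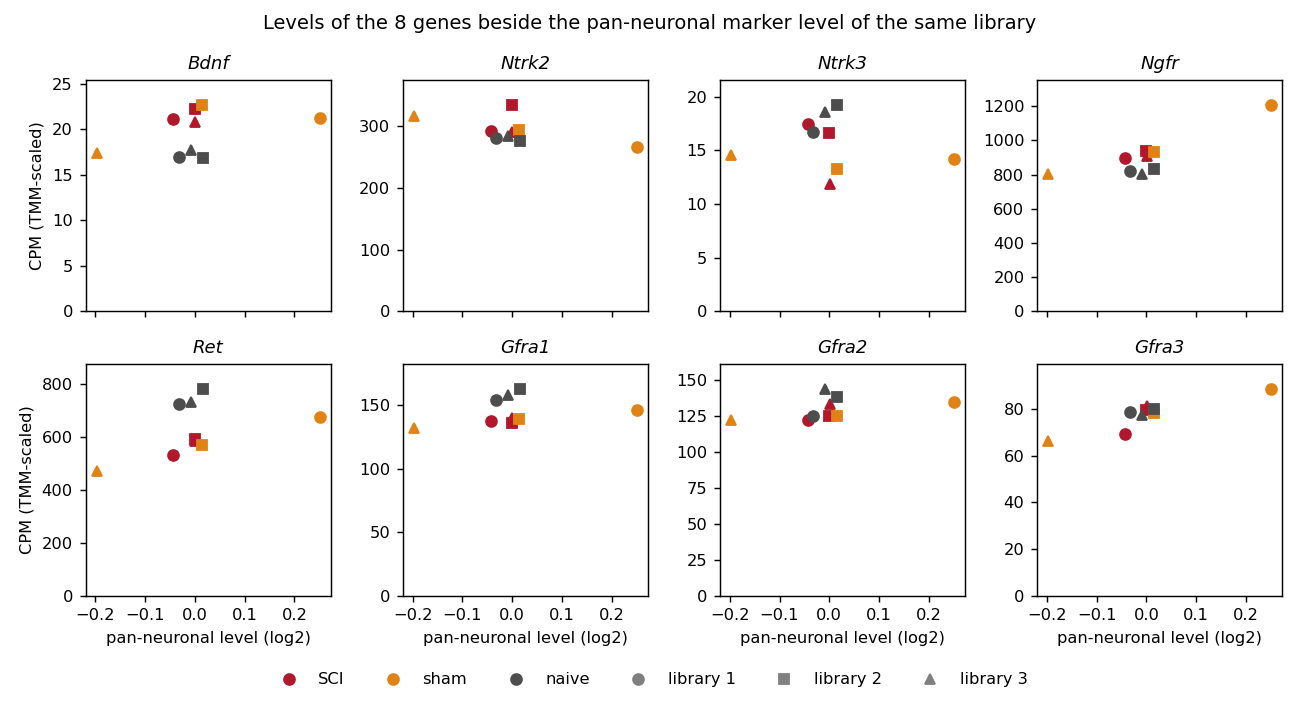
Level in CPM of each of the 8 genes (vertical axes) against the log2 level of 10 pan-neuronal markers in the same library, relative to the mean of all libraries (horizontal axes). Sham 1 lies far right and sham 3 far left. Ngfr, Ret and Gfra3 run upward across the sham libraries and Ntrk2 runs downward.

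Among the 8 genes, Bdnf, Ngfr, Ret, Gfra1 and Gfra3 had their widest spread relative to the mean in sham, whereas Ntrk3 had it in SCI and Gfra2 in naive. For Ntrk2 it was also widest in sham, by a small margin (8.59% of the mean, against 8.41% in SCI and 1.21% in naive). The pan-neuronal level, a geometric mean of 10 neuronal markers on the log2 scale, was 0.25 in sham 1, 0.015 in sham 2 and -0.20 in sham 3, while it lay between -0.043 and 0.00051 in SCI and between -0.032 and 0.016 in naive. This mean covers markers that differed from naive both ways, 3 of 10 higher and 2 lower in SCI and likewise in sham. Uchl1 was the most raised in SCI against naive (0.41, SE 0.09), and Elavl4 (-0.77, SE 0.11) and Syt1 (-0.73, SE 0.11) were the lower ones, all chosen after their values were seen. The summed level of the 10 markers was 33888 to 34176 CPM in SCI, 30085 to 44396 CPM in sham and 30385 to 31707 CPM in naive. Ngfr, Ret, Gfra1, Gfra2 and Gfra3 were all highest in sham 1 and lowest in sham 3. Ntrk2 had the reverse order, as did the sum of the satellite glia markers, most of it Apoe. That sum was 8688 CPM in sham 1, 9117 CPM in sham 2 and 11636 CPM in sham 3. Libraries were also scaled to the pan-neuronal level, a choice made after seeing the data. On that scale Ret fell by 0.38 in SCI against naive (adjusted p = 0.00258 in edgeR) and by 0.45 in sham against naive (adjusted p = 0.00072), while no other of the 8 genes passed. Ngfr gave 0.17 in SCI against naive (adjusted p = 0.0905) and 0.19 in sham against naive (adjusted p = 0.0512). Bdnf gave 0.32 in SCI against naive (adjusted p = 0.0726) and 0.19 in sham against naive (adjusted p = 0.261). Gfra1 gave -0.19 in SCI against naive and -0.23 in sham against naive, with adjusted p of 0.159 and 0.0918, and Ntrk3 in sham against naive gave -0.42 (adjusted p = 0.0854). The whole table had 1966 genes higher and 3309 lower in sham against naive on this scale, and 4102 higher and 4305 lower on the usual one. Between SCI and sham no gene was called on this scale, and Ret, Gfra1, Gfra2 and Gfra3 had small positive differences (0.07, 0.04, 0.05 and 0.04) in place of small negative ones.

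Ratios between pairs of the genes within 1 library do not depend on how libraries are scaled. Gene lengths cancel when a ratio is compared between groups, so only the difference between groups is read here, and the pairs were chosen with the counts known and are described without a test. The log2 ratio of Ret to Ngfr was -0.76, -0.67 and -0.64 in SCI, -0.85, -0.72 and -0.78 in sham, and -0.19, -0.095 and -0.13 in naive. The 6 libraries from operated rats lay apart from the naive ones by more than the spread within any group, sham 1 and sham 3 included. The receptor kinase of the GDNF family thus had a smaller share relative to p75 in every operated library.

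Relative to Ret, all 3 of its co-receptors were higher in SCI than in naive. The log2 ratio of Gfra3 to Ret was -2.94 to -2.84 in SCI, -2.92 to -2.82 in sham and -3.28 to -3.20 in naive. Gfra2 to Ret ran from -2.24 to -2.12 in SCI, from -2.31 to -1.94 in sham and from -2.53 to -2.35 in naive. Gfra1 to Ret had the smallest gap, at -2.12 to -1.95 in SCI, -2.20 to -1.82 in sham and -2.26 to -2.21 in naive, and sham 1 lay just above the highest naive library. The ratio of Ntrk2 to Ret was -1.01 to -0.82 in SCI, -1.33 to -0.57 in sham and -1.49 to -1.36 in naive.

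Within the Trk pair, the log2 ratio of Ntrk3 to Ntrk2 was -4.62 to -4.06 in SCI, -4.48 to -4.24 in sham and -4.07 to -3.84 in naive. SCI 1 overlapped the naive libraries and the sham libraries did not. Bdnf relative to its kinase gene Ntrk2 was -3.91 to -3.79 in SCI, -4.19 to -3.65 in sham and -4.04 to -4.00 in naive. Sham 3 held the lowest value of all libraries, below the naive ones. Ntrk2 to Ngfr overlapped in all groups, at -1.65 to -1.49 in SCI, -2.18 to -1.34 in sham and -1.59 to -1.50 in naive.

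**Figure D4:**
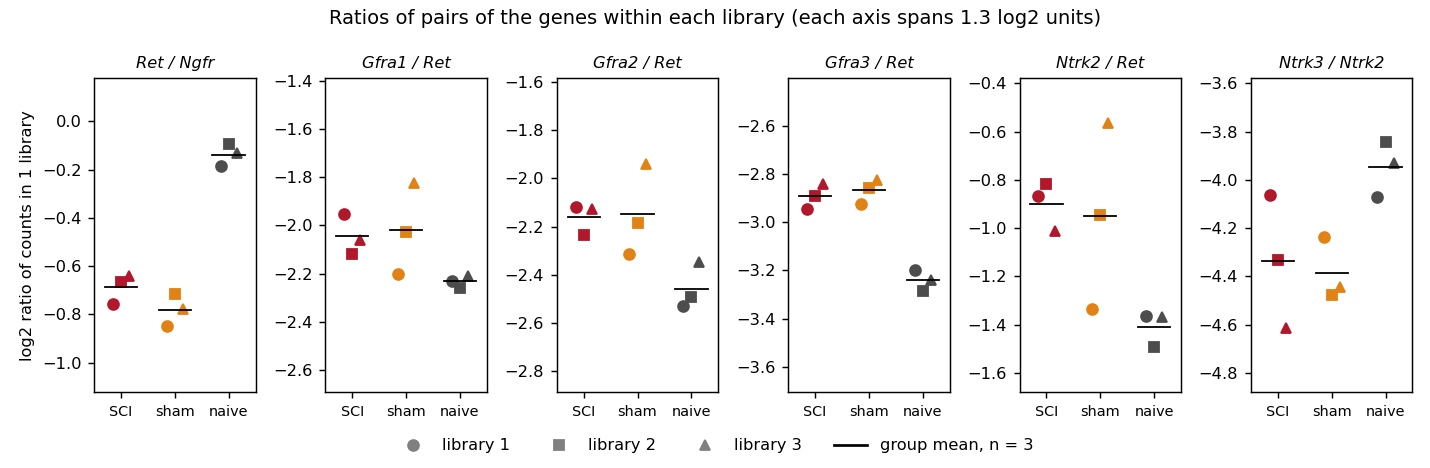
Log2 ratios of counts between pairs of the 8 genes within each library (points, 3 per group) with group means (lines), in SCI, sham and naive; every vertical axis spans the same range of log2 units. Ret to Ngfr is -0.85 to -0.64 in the 6 operated libraries and -0.19 to -0.095 in the naive ones.

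Across the 9 libraries, Ret and Gfra1 had the closest pattern among the 8 genes, with Pearson's r of 0.95 between their log2 CPM. The value was 0.73 for Ret with Gfra2, 0.66 for Ret with Gfra3, 0.67 for Bdnf with Ngfr and -0.68 for Ntrk2 with Gfra1. These values describe libraries that share the separation of the naive group and carry no test. Among all other genes tested, the patterns most like Ret were Stat3 (r = 0.991) and Anks1b (0.990), and those most like Gfra1 were Chrm3 (0.991) and Abca6 (0.988). Ngfr was nearest to P2rx6 (0.989) and Cyb5r1 (0.988), and Bdnf to Susd5 (0.959) and Mapk7 (0.952). Ntrk2 was nearest to Aurkc (0.961) and Vdr (0.940), and Ntrk3 to Sec14l5 (0.936) and Zbtb5 (0.935). For Gfra2 these were Chrnb4 (0.921) and Fgd6 (0.880), and for Gfra3 Nub1 (0.948) and Tle1 (0.946).

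The genes around these receptors were followed in 10 lists of ligands, partners, adaptors and targets, with 87 tested genes beside the 8. In SCI against sham 0 of the 87 were called, 1 had an unadjusted p under 0.05, and their median change was 0.0018. In SCI against naive 26 were higher and 27 were lower, or 60.9%, with a median of -0.036. In sham against naive 25 were higher and 29 were lower, or 62.1%, with a median of 0.0011. Both shares stand beside the 48.5% and 50.6% of all genes given above.

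The other ligands named here were scarce. Gdnf had 0 to 2 counts and Ntf4 had 0 to 4 counts in each library, and neither was tested. Artn, which encodes the ligand of Gfra3, stood at 1.21, 0.890 and 1.14 CPM in SCI, 0.882, 0.595 and 1.24 CPM in sham, and 0.579, 0.787 and 0.514 CPM in naive. It was higher in SCI against naive by 0.80 (SE 0.28, adjusted p = 0.0315 in edgeR), and sham against naive gave 0.54 (SE 0.30, adjusted p = 0.146). Ntf3 (0.39 in SCI against naive, SE 0.43), Nrtn (-0.21, SE 0.19) and Pspn (-0.44, SE 0.32) did not pass.

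Among the other receptors, Sort1, whose product sortilin joins p75 in binding the precursors of neurotrophins, was lower in SCI against naive by 0.23 (SE 0.07, adjusted p = 0.0156 in edgeR) and in sham against naive by 0.23 (adjusted p = 0.0134). Ncam1, an alternative receptor for GDNF, averaged 94.2 ± 1.25 CPM in SCI, 95.1 ± 3.78 CPM in sham and 127 ± 5.92 CPM in naive, and was lower in SCI against naive (-0.43, SE 0.06, adjusted p = 8.5e-05). Sdc3, a proteoglycan that also binds GDNF, averaged 454 ± 12.0 CPM in SCI, 450 ± 18.9 CPM in sham and 358 ± 13.7 CPM in naive, and was higher in SCI against naive (0.34, SE 0.07, adjusted p = 0.000874). Gfra4, the persephin co-receptor, had 1.08, 0.742 and 1.32 CPM in SCI, 1.32, 1.55 and 1.59 CPM in sham, and 1.23, 1.07 and 1.19 CPM in naive. Its SCI libraries lay below all sham libraries, by -0.48 (SE 0.23), which did not pass (adjusted p = 0.9999 in edgeR). The receptors of GDNF therefore moved both ways against naive, with Ret, Gfra1 and Ncam1 lower and Sdc3 higher.

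Of 10 partners of p75, 4 were higher and 3 were lower in SCI against naive, and 5 were higher and 3 were lower in sham against naive. Arhgdia, whose product p75 binds, was higher in SCI against naive by 0.61 (SE 0.08), as was Ngfrap1, a p75-associated cell death gene, by 0.46 (SE 0.06). Rtn4, which encodes the axon growth inhibitor Nogo, was lower by 0.76 (SE 0.11). In the same order, sham against naive gave 0.64, 0.56 and -0.79 for these genes, and all of these values passed in edgeR, with adjusted p of 7.34e-05 or below.

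Of 23 adaptors and enzymes that act below Trk and Ret, 8 were higher and 5 were lower in SCI, and 7 were higher and 5 were lower in sham, against naive. The lower ones included Frs2, the docking protein shared by Trk and Ret, by 0.82 (SE 0.07) in SCI and 0.80 (SE 0.07) in sham. They also included Pik3ca, the catalytic subunit of a phosphoinositide kinase, by 0.76 and 0.74, and Sos1, an activator of Ras, by 0.61 and 0.55, all 3 with adjusted p of at most 5.50e-06 in edgeR. The median change of the 23 was positive, at 0.11 in SCI and 0.12 in sham. Frs3 went the other way, at 24.4 CPM in SCI, 23.8 CPM in sham and 16.7 CPM in naive. So did Dok4, at 353, 376 and 254 CPM in the same order. Frs3 and Dok4 were named here after their values were seen. Of 14 feedback inhibitors and target genes of the MAPK pathway, 5 were higher and 3 were lower in SCI, and 5 were higher and 4 were lower in sham. Egr1, an immediate early gene, averaged 29.2 ± 3.51 CPM in SCI, 23.4 ± 4.16 CPM in sham and 16.9 ± 1.16 CPM in naive. Egr1 was higher in SCI against naive by 0.79 (SE 0.12, adjusted p = 0.000197 in edgeR), and SCI against sham gave 0.32 (SE 0.12, adjusted p = 0.9999). Spred2, an inhibitor of Ras signalling, was higher in SCI by 0.43 (SE 0.08), and Spry4, another inhibitor, was lower by 0.47 (SE 0.09). In sham against naive Spred2 gave 0.41 (SE 0.08). Spry4 averaged 29.3 CPM in SCI, 33.5 CPM in sham and 40.6 CPM in naive.

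Of 11 genes that cleave or release neurotrophin precursors, 2 were higher and 6 were lower in SCI, and 1 was higher and 6 were lower in sham, against naive. The convertases Pcsk6 and Pcsk1 were lower in SCI by 0.62 (SE 0.07) and 0.56 (SE 0.08), and the sorting receptor gene Sorcs1 by 0.74 (SE 0.09). In sham against naive these 3 genes gave -0.65, -0.57 and -0.87. Furin, also a convertase gene, was higher in SCI by 0.50 (SE 0.08), and averaged 53.0 CPM in SCI, 54.2 CPM in sham and 37.4 CPM in naive. Of 10 transcription factors that mark the receptor classes of sensory neurons, 3 were higher and 3 were lower in SCI, and 4 were higher and 4 were lower in sham. Maf, a factor of touch neurons in mice, averaged 38.8 ± 3.69 CPM in SCI, 38.0 ± 1.61 CPM in sham and 66.8 ± 4.47 CPM in naive, and was lower by 0.78 (SE 0.08) in SCI against naive. Etv1, a factor of muscle afferents in mice, was lower in SCI by 0.51 (SE 0.07) and in sham by 0.48 (SE 0.07). Runx3, another factor of muscle afferents in mice, was higher in SCI by 0.44 (SE 0.15), as was Mafa by 0.47 (SE 0.13). Runx3 averaged 6.60 CPM in SCI, 7.07 CPM in sham and 4.86 CPM in naive, and Mafa 7.98, 7.55 and 5.72 CPM in the same order. Of 10 cytokines of the CNTF family and their receptors, 1 was higher and 6 were lower in both comparisons with naive. Cntf, which myelinating Schwann cells make, was lower in SCI by 0.77 (SE 0.10), and so were Lifr and Il6st, for the signalling subunits of its receptor, by 0.92 (SE 0.13) and 0.44 (SE 0.07). In sham against naive Cntf, Lifr and Il6st gave -0.81, -0.99 and -0.50. Cntfr, for the subunit that binds CNTF, was higher in SCI by 0.38 (SE 0.08), and averaged 87.0 CPM in SCI, 88.1 CPM in sham and 66.6 CPM in naive. Furin, Runx3, Mafa and Cntfr were named after their values were seen. Every gene named in these lists as higher or lower passed in edgeR. The Schwann cell markers that moved beside Cntf are given above, and their part in its change was not tested.

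**Figure D5:**
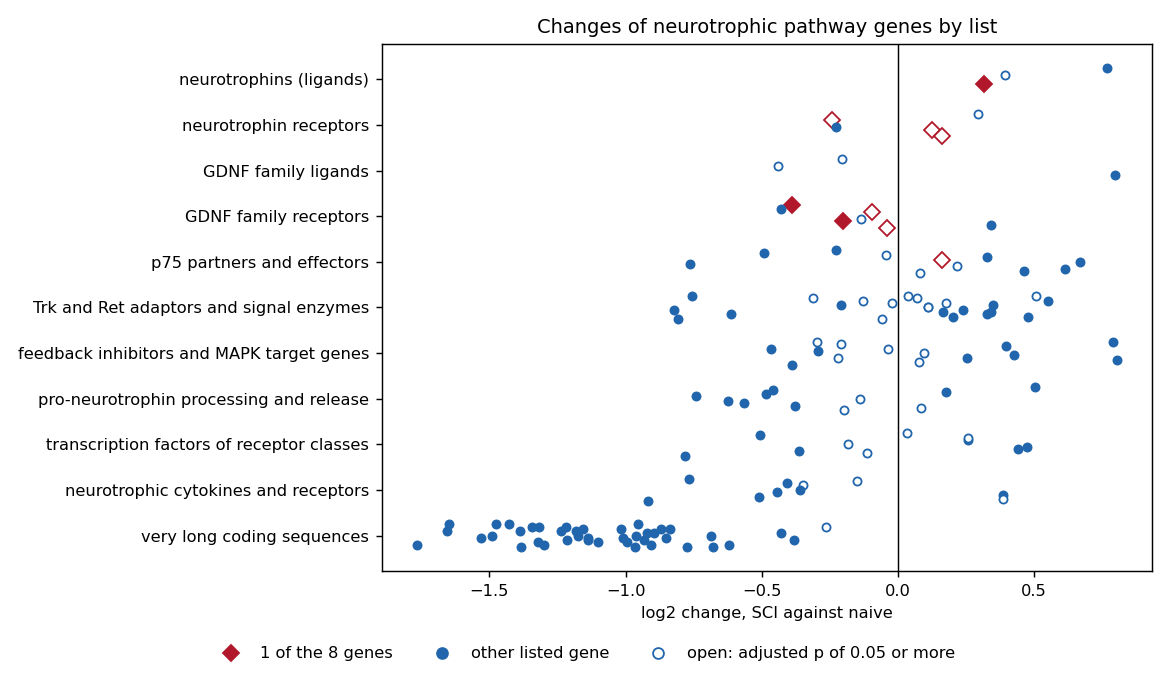
Log2 change in SCI against naive of every tested gene of the 10 pathway lists and of the list of very long coding sequences (rows), with diamonds for the 8 genes and open symbols for an adjusted p of 0.05 or more. The pathway lists spread to both sides of 0, from -0.92 to 0.81, while 41 of the 42 genes with very long coding sequences were lower.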

How the data were processed

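Counts of reads per gene were deposited by the authors as whole numbers, not normalized. Per the labels' protocols, RNeasy Mini columns gave the RNA and TruSeq RNA V2 the paired-end libraries, a kit without strand marks, so reads of an overlapping antisense gene are not separated. The submitters' processing notes name HTSeq, TopHat2, Trimmomatic, FastQC and DESeq2. Their versions, the genome build and the annotation: not given in the sources used here. Pathway lists and the 8 genes were chosen with earlier results of these data known.

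All count columns were tested with edgeR 4.0.16 in R 4.3.3 (quasi-likelihood test, TMM scaling, filterByExpr by group, a mean for each group, 9 libraries, 6 residual degrees of freedom), with Benjamini-Hochberg adjustment over 16627 genes and calls at an adjusted p under 0.05. The p-values rest on the spread between libraries, which may be technical. Intervals are 95%, from the fit's standard error. CPM use TMM-scaled library sizes, and log2 CPM a prior count of 2. The test was checked on simulated counts with 2-fold changes and a single spread for all genes. That setting differs from the smaller changes of the genes described here. Named pathway genes were, per list and comparison, the 3 with the smallest p, and every ligand and receptor. Likeness took the 2 genes with the highest r. Of 92 pathway symbols 90 matched, by symbol or by a RefSeq synonym. Some genes that the lists and the rule take are not reported here. Protein and gene lengths were not used.

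The deviations of same-numbered libraries from their group means were weakly correlated (-0.095 to 0.12). With so few libraries a group, this cannot decide whether a number marks shared animals or days, which the labels do not say. Alternatives were RLE scaling, no filter, DESeq2 1.42.0, limma-voom 3.58.1, only the groups compared, the replicate block, each library left out, an adjusted p under 0.1 and, added after seeing the data, pan-neuronal scaling.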

Additional observations from a re-analysis of the deposited data

How the results depend on the processing

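Of the 8 genes, Ret kept its calls against naive in 17 of 17 settings in both comparisons. Bdnf was called in 15 (SCI) and 6 (sham), Gfra1 in 14 and 12, Ntrk3 in 1 and 13 and Ngfr in 2 and 2, and none of the 8 was called between SCI and sham in any setting. With 3 libraries a group, the 95% intervals of SCI against sham reached down to -0.35 (Ngfr) and up to 0.41 (Ntrk3). Differences within the intervals are compatible with these data, and the intervals are no limit of detection. The causes of the shifts below were not tested.

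Between SCI and sham, edgeR called 11 genes with no filter, DESeq2 called 9, and leaving out 1 library gave 0 to 22. Signs near 0 turned: with no filter Ret gave 0.0024 and Gfra2 0.0012, with limma-voom Ret gave 0.018, and with pan-neuronal scaling Ret gave 0.068, Gfra1 0.037, Gfra2 0.048 and Gfra3 0.045. Leave-one-out ranges were -0.13 to 0.13 for Ret, -0.052 to 0.021 for Gfra1, -0.041 to 0.041 for Gfra2, -0.13 to 0.084 for Gfra3, -0.23 to 0.077 for Ngfr, -0.011 to 0.12 for Ntrk2, -0.037 to 0.14 for Bdnf and 0.023 (without SCI 1) to 0.29 (without SCI 3) for Ntrk3.

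In SCI against naive, Ngfr gave 0.15 with only the groups compared and then passed. Pan-neuronal scaling called 4688 genes and 1 of the 8, with Bdnf at 0.32 and Gfra1 at -0.19 not passing. Leave-one-out ranges were 1 to 4 of the 8 called, 0.29 to 0.33 for Bdnf, -0.22 to -0.18 for Gfra1, 0.14 to 0.18 for Ngfr, -0.36 to -0.094 for Ntrk3 and -0.085 to 0.034 for Gfra3.

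In sham against naive, Ngfr passed at 0.26 with no filter. With only the groups compared 2 of the 8 were called, and Bdnf (0.25) and Gfra1 (-0.18) did not pass. Pan-neuronal scaling called 5275 genes and 1 of the 8, with Bdnf at 0.19, Ntrk3 at -0.42 and Gfra1 at -0.23 not passing. Leave-one-out ranges were 1 to 5 of the 8 called, 0.18 to 0.36 for Bdnf, -0.43 to -0.33 for Ntrk3, -0.23 to -0.14 for Gfra1, 0.077 to 0.40 for Ngfr and -0.13 to 0.095 for Gfra3.

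With the replicate number as a block, 0, 7848 and 8153 genes were called in SCI against sham, SCI against naive and sham against naive, Ret gave 0.0073 in SCI against sham, and Bdnf in sham against naive gave 0.24 and did not pass (adjusted p = 0.0511). The labels do not say what a replicate number marks, and why the call was lost was not tested.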
